A study of Solanum lycopersicum with 6 samples.

Results

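Multidrug and toxic compound extrusion (MATE) transporters and aluminium-activated malate transporters (ALMT) were followed in tomato (Solanum lycopersicum) roots by RNA sequencing. The genes were taken by the wording of their descriptions, which call MATE proteins "Protein DETOXIFICATION" or MATE efflux family proteins and name ALMT proteins as such. This gave 118 of the 35768 genes listed, 95 of them MATE and 23 ALMT. The 2 groups were roots of slszp1 mutant and of wild type plants, each with 3 libraries from biological replicates. All plants were 20 days old and all had received 60 µM aluminium (Al) at pH 4.7. Untreated roots were not analysed here, so every difference is one between genotypes under Al. The labels do not say which allele the mutant carries or how many lines or plants stand behind each library, and the descriptions do not name SZP1, so the mutated gene could not be followed. SZP1 is known as a zinc finger protein that interacts with STOP1, a transcription factor with zinc fingers on which tolerance of Al and protons depends.

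MATE proteins move small organic compounds out of the cytosol in exchange for protons or sodium. In plants some members release citrate, and citrate released by root tips binds Al outside the cell, while others carry citrate to the xylem for iron transport or load flavonoids, alkaloids and other compounds into vacuoles. ALMT proteins are anion channels. In Arabidopsis, ALMT1 releases malate from roots under Al and is a known target of STOP1, and other members sit in the vacuolar membrane or in guard cells. The descriptions of the tomato MATE genes name no substrate, so it is not known from them which genes carry citrate.

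Levels are given in TPM, a share of all transcripts that corrects for gene length, and the unit was inferred from the values. Genes were tested where they reached 1 TPM in at least 3 of the 6 libraries. Differences are log2(TPM + 1) in mutant roots minus that in wild type roots, each with a standard error (SE). The added 1 makes the change of weakly expressed genes look smaller. A gene is said to have risen or fallen where limma gave a Benjamini-Hochberg adjusted p under 0.05 over all 17702 tested genes. Between 17050 and 17728 genes per library reached 1 TPM, and the depth in reads is unknown. Markers of root tissue were present, with a Casparian strip membrane protein gene (Solyc10g077055.1, a model matched in part) at 29.8 TPM in mutant roots against 28.6 TPM in wild type. Of 21 root marker genes 4 were at 0 in every library. Their summed level was 364 to 409 TPM in mutant libraries and 453 to 482 TPM in wild type libraries. Of 10 tested genes 3 were lower (30%, against 10.5% of all tested genes). They were 2 nitrate transporter genes (Solyc06g074990.2, 1.30 against 27.9 TPM, and Solyc03g112090.3, 1.42 against 3.09 TPM) and fe inefficient (Solyc06g051550.3, 0.373 against 85.9 TPM). The last was tested only through its wild type levels. Of 55 marker genes of dividing cells 16 were at 0. The sums were 2275 to 2744 TPM and 2698 to 3894 TPM, with wild type replicate 2 highest. Of 33 tested genes 6 were lower (18.2%, against 10.5% of all tested genes), and 1 of the 33 was tested only through its wild type levels. The difference was below 0 in 30 of these 33 genes, with a median of -0.53. Among all 17702 tested genes it was below 0 in 8858, with a median of -0.0005. Of 5 marker genes of the endodermal and exodermal barrier 2 were at 0, and the sums were 44.4 to 49.7 TPM and 100.5 to 116 TPM. The difference in that last list was in a feruloyl transferase gene (Solyc03g097500.3), whose enzyme takes part in suberin formation, at 8.47 TPM in mutant roots against 74.3 TPM in wild type. Shoot markers summed to 171.5 to 228.9 TPM and 170.4 to 229.3 TPM with 11 of 51 at 0, and the 2 root cap genes to 1.69 to 6.36 TPM and 3.17 to 5.34 TPM. Whether shifts in cell types take part in the differences below was not tested, and in whole roots fewer cells of a type and less RNA per cell cannot be told apart.

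In wild type libraries 4 members held 52.1% to 71.97% of the summed level of the family, and in mutant libraries the same 4 held 26.1% to 37.4%. They were taken for the highest means over all libraries and are also the 4 most abundant in wild type. A lower share in the mutant may therefore follow in part from their choice. Of the 118 genes, 35 were listed at 0 in all 6 libraries, 41 were above 0 but under the minimum, and 42 were tested. The share tested was 42.1% of MATE genes and 8.7% of ALMT genes, against 49.5% of all genes. Tested members had mean levels over all libraries from 1.11 to 127 TPM, with a median of 3.35 TPM, against 12.98 TPM for all tested genes. In wild type the most abundant members were Solyc11g010380.2 (218 ± 165 TPM, SD, n = 3), Solyc12g005850.2 (112 ± 13.1 TPM), Solyc12g019320.2 (55.2 ± 14.1 TPM) and Solyc03g118970.3 (43.2 ± 33.2 TPM). In the mutant the order was Solyc12g019320.2 (39.2 ± 3.27 TPM), Solyc11g010380.2 (36.3 ± 8.11 TPM), Solyc02g063270.3 (30.8 ± 5.70 TPM) and Solyc03g026230.1 (26.9 ± 3.21 TPM). Only Solyc12g005850.2 and Solyc12g019320.2 in wild type were neighbours in these orders whose libraries did not overlap. Solyc12g005850.2, the second gene in wild type, was at place 9 in the mutant, and Solyc01g087150.3 moved from place 5 to place 26.

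The summed level of the 118 genes was 359.02, 367.08 and 370.54 TPM in mutant replicates 1, 2 and 3 and 565, 910.65 and 644.14 TPM in the wild type replicates. The mutant libraries lay close together and below every wild type library, and wild type replicate 2 lay far above its 2 companions. Of the difference of 341 TPM between the group means, Solyc11g010380.2 made up 53.2% and Solyc12g005850.2 28.1%. Without these 2 genes the sums were 308.1, 301.47 and 328.51 TPM in mutant roots against 355.59, 376.16 and 397.52 TPM in wild type. The groups still did not overlap in that sum, but the gap between their means was 63.7 TPM. Solyc11g010380.2 held 44.7% of the sum in wild type replicate 2, against 18.4% and 22.2% in wild type replicates 1 and 3 and 7.70% to 12.2% in the mutant. Without this gene alone the wild type sums were 461.26, 503.54 and 501.24 TPM, and replicate 2 no longer stood apart.

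**Figure D1:**
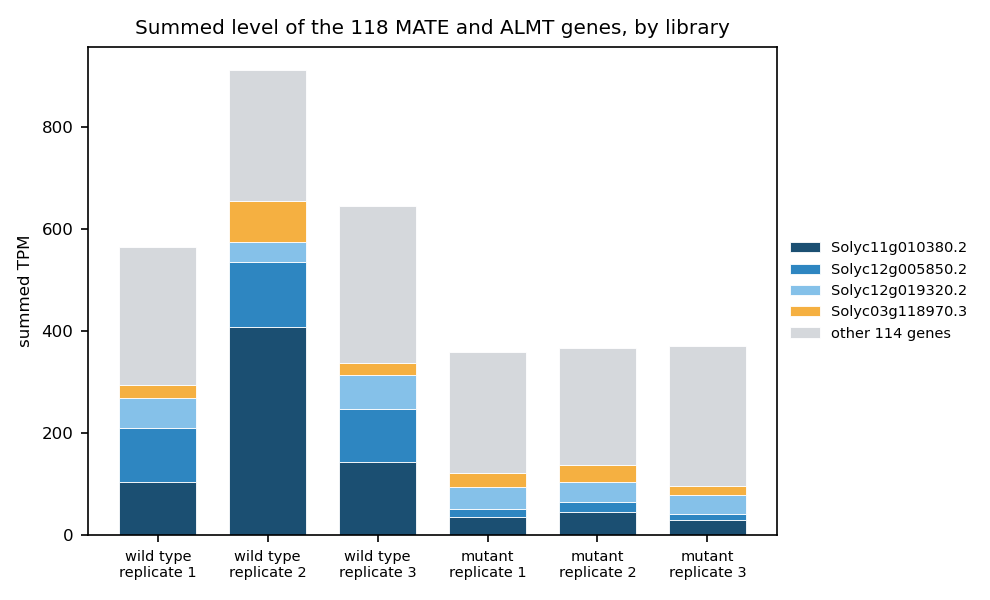
Summed TPM of the 118 MATE and ALMT genes in each library, with the 4 most abundant genes as separate segments and the other 114 genes in grey. The mutant bars stand at 359.02 to 370.54 TPM and the wild type bars at 565 to 910.65 TPM, and the dark segment of Solyc11g010380.2 is tallest in wild type replicate 2.

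Of the 42 tested members, 10 fell and 4 rose in the mutant, and all 14 were MATE genes. The 10 lower genes were 23.8% of those tested, where 10.5% of all tested genes fell, and the 4 higher genes were 9.52%, where 8.71% of all tested genes rose. Of all tested genes 19.2% changed in either direction. The difference was at least 2-fold on the log2(TPM + 1) scale for 8 of the lower genes (6.25% of all tested genes) and all 4 higher ones (5.15%). The median difference of the 42 members was -0.18, and of all tested genes -0.0005. In 13 members every mutant library was below every wild type library and in 6 every one was above, which is 31% and 14.3% of those tested, against 20.2% and 18.2% of all tested genes. A single member, Solyc01g008420.3, reached the minimum in wild type libraries alone and so had to differ. Without genes that reached it in 1 genotype only, 9 of 41 members fell (22%, against 9.59% of all such genes) and 4 rose (9.76%, against 8.09%). The list of members was not compared with other genes by a test of the list as a whole.

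**Figure D2:**
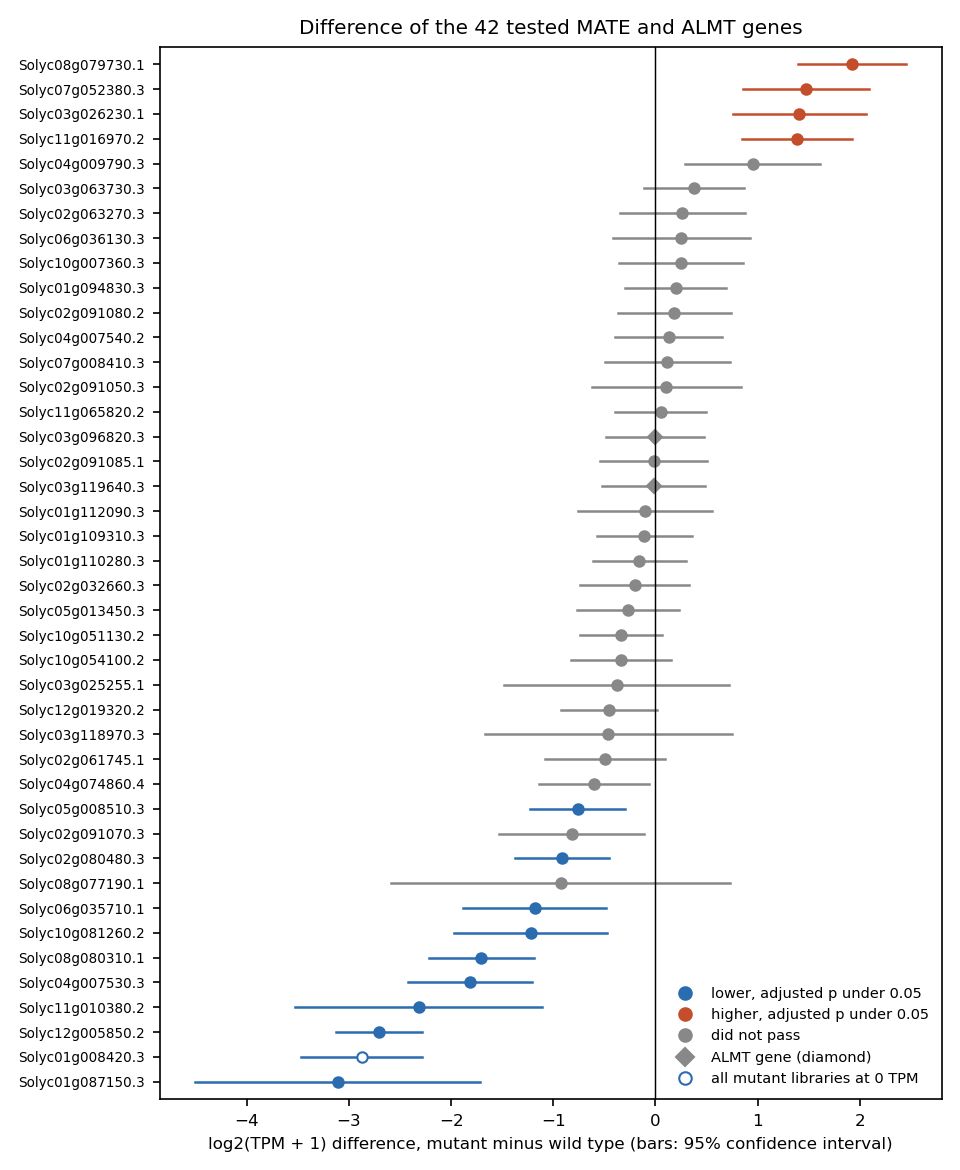
Difference in log2(TPM + 1), mutant minus wild type, with its 95% confidence interval, for the 42 tested members. The 10 genes that fell run from -0.76 to -3.11 and the 4 that rose from 1.38 to 1.92, and the 2 ALMT genes, drawn as diamonds, sit at 0. The open circle marks the gene with all mutant libraries at 0 TPM, whose difference depends on the added 1.

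Of the 4 most abundant MATE genes of wild type roots, Solyc11g010380.2 and Solyc12g005850.2 fell, and Solyc12g019320.2 and Solyc03g118970.3 did not pass. Solyc12g005850.2 held 15.2, 20.9 and 13.51 TPM in mutant replicates 1 to 3 and 105.67, 127.38 and 103.72 TPM in wild type. All mutant libraries were far below all wild type libraries, and the libraries within each genotype lay close together. The difference came to -2.71 (SE 0.19). The limma adjusted p was 6.05e-05 and stayed between 1.43e-05 and 0.00102 over all alternatives. Solyc11g010380.2 held 35.72, 44.71 and 28.52 TPM in mutant roots against 103.74, 407.11 and 142.9 TPM in wild type. The genotypes did not overlap, but wild type replicate 2 was far above its companions. The difference was -2.32 (SE 0.50; limma adjusted p = 0.0231). Without that library the difference was -1.74 and the limma adjusted p was 0.00177. Without mutant replicate 1, 2 or 3 or wild type replicate 3 the limma adjusted p was 0.0597 to 0.0816 and the call was lost. Wild type replicate 2 remained in these fits. It also remained in the fit without wild type replicate 1, where the call held (limma adjusted p = 0.0145).

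Both other large falls were of genes at low levels or at 0 in the mutant. Solyc01g087150.3 held 3.2, 1.62 and 2.85 TPM in mutant roots against 40.15, 10.72 and 55.45 TPM in wild type. Here wild type replicate 2 was the lowest of its group, yet still above every mutant library. The difference was -3.11 (SE 0.58; limma adjusted p = 0.0132), and the call was lost without mutant replicate 2 or 3 (limma adjusted p of 0.0593 and 0.0518). Solyc01g008420.3 was listed at 0 in all 3 mutant libraries and held 7.39, 4.15 and 8.14 TPM in wild type. No fold is given against a group at 0. Because the gene was tested only through its wild type levels, its place among the genes that fell is no support for a difference, and its levels are given as a description. The adjacent genes in the table were at 0.06 TPM or less in the means of both genotypes.

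Solyc08g080310.1 and Solyc04g007530.3, at lower levels, fell as well. Solyc08g080310.1 held 3.54, 5.49 and 3.4 TPM in mutant roots against 18.07, 12.47 and 16.4 TPM in wild type, a difference of -1.70 (SE 0.22; limma adjusted p = 0.00142). Solyc04g007530.3 held 1.69, 0.8 and 2.05 TPM against 6.14, 7.44 and 9.76 TPM, a difference of -1.82 (SE 0.27; limma adjusted p = 0.00226). In both genes the genotypes were well apart, and both calls held under every alternative. The MATE gene with the next identifier, Solyc04g007540.2, was at 1.84 ± 0.630 TPM in mutant roots against 1.56 ± 0.217 TPM in wild type roots and did not pass. Its difference had a 95% interval of -0.39 to 0.65.

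The other 4 lower genes rested on less. Solyc10g081260.2 held 3.26, 1.98 and 2.89 TPM in mutant roots against 4.98, 13.16 and 6.4 TPM in wild type (difference -1.22, SE 0.33; limma adjusted p = 0.0333). As with Solyc11g010380.2, wild type replicate 2 was the highest library. Solyc06g035710.1 held 0.63, 0.93 and 1.04 TPM against 4.53, 4.13 and 1.65 TPM (difference -1.18, SE 0.31; limma adjusted p = 0.0283), with wild type replicate 3 near the mutant. Solyc02g080480.3 held 1.95, 1.49 and 2.34 TPM against 4.42, 4.5 and 4.53 TPM (difference -0.92, SE 0.20; limma adjusted p = 0.0147), and its wild type libraries were nearly equal. Solyc05g008510.3 was the most abundant of these, with 20.45, 19.14 and 14.04 TPM against 33.37, 24.39 and 35.32 TPM (difference -0.76, SE 0.20; limma adjusted p = 0.0316). Each of these 4 calls was lost without some of the single libraries, with limma adjusted p of at most 0.105. With no minimum level the limma adjusted p was 0.0653 for Solyc10g081260.2, 0.0532 for Solyc06g035710.1 and 0.0584 for Solyc05g008510.3. The call of Solyc05g008510.3 was also lost under median centring (limma adjusted p = 0.0544).

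**Figure D3:**
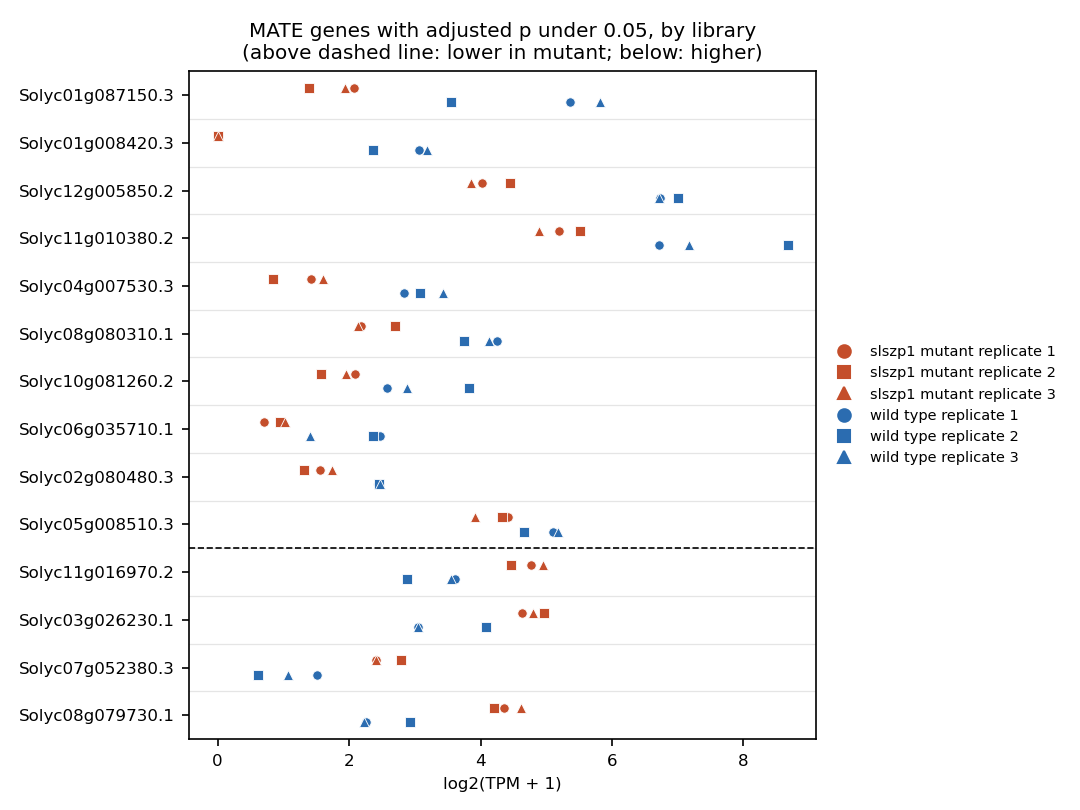
Level of the 14 changed MATE genes in each library, as log2(TPM + 1), with the mutant in red and wild type in blue. Symbols give the replicate number, which is not taken as a pairing. The genes above the dashed line fell and those below rose; in none do the genotypes overlap, and the square of wild type replicate 2 lies far right in Solyc11g010380.2 and left of its group in Solyc01g087150.3.

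The 4 MATE genes that rose lay between 4.83 and 26.9 TPM in the mutant. Solyc08g079730.1 held 19.48, 17.34 and 23.6 TPM in mutant roots against 3.77, 6.57 and 3.68 TPM in wild type, a difference of 1.92 (SE 0.23; limma adjusted p = 0.000948). Solyc03g026230.1 held 23.8, 30.22 and 26.81 TPM against 7.26, 15.92 and 7.27 TPM, a difference of 1.41 (SE 0.28; limma adjusted p = 0.0109). Wild type replicate 2 lay between its companions and the mutant in both, closest in the second. Solyc11g016970.2 held 26.19, 20.99 and 30.07 TPM against 11.23, 6.33 and 10.73 TPM, a difference of 1.38 (SE 0.24; limma adjusted p = 0.00481). Solyc07g052380.3 held 4.3, 5.89 and 4.3 TPM against 1.84, 0.53 and 1.1 TPM, a difference of 1.47 (SE 0.27; limma adjusted p = 0.0067). In each gene the lowest mutant library was above the highest wild type library. All 4 calls held under every alternative, including each library left out. Summed, these 4 genes held 77.7 ± 6.17 TPM in mutant roots against 25.4 ± 3.48 TPM in wild type, while the 10 that fell held 84.4 ± 13.3 TPM and 443 ± 152 TPM. These sums follow from the choice of genes and are given as amounts.

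The count of falls depended on single libraries more than the count of rises. Leaving out each library in turn gave 4 or 5 higher and 5 to 10 lower members. The lower count was 5 without mutant replicate 2 and 5 without mutant replicate 3. Without wild type replicate 2, the library with the highest sum, 4 rose and 10 fell, and 13 of these 14 genes were the same. Of the 14 calls, 8 held with each library left out in turn, 4 higher (Solyc08g079730.1, Solyc03g026230.1, Solyc11g016970.2 and Solyc07g052380.3) and 4 lower (Solyc12g005850.2, Solyc08g080310.1, Solyc04g007530.3 and Solyc01g008420.3, the last tested only through its wild type levels). All 14 kept their direction under every alternative. Their genotypes did not overlap, so leaving out a library could not turn a direction, and no support is drawn from this.

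**Figure D4:**
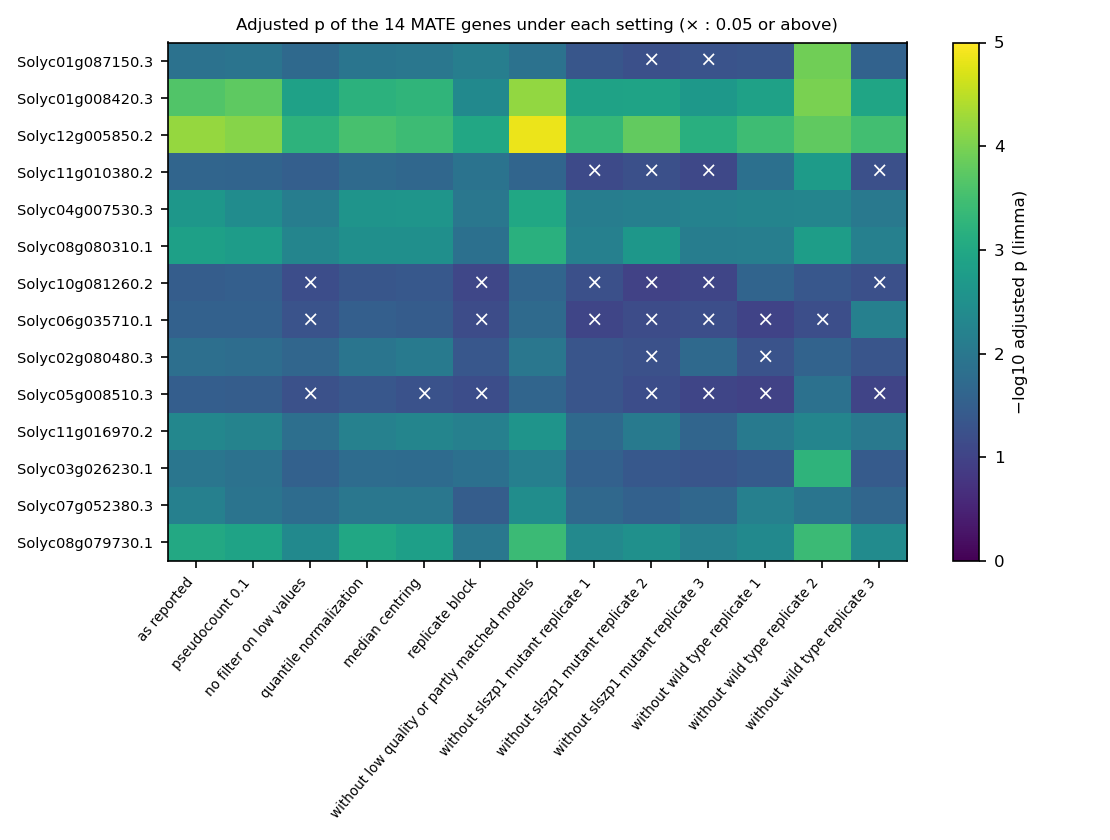
Adjusted p from limma (as −log10, colour) of the 14 changed genes as reported and under 12 alternatives, with a cross where the value was 0.05 or above. The 8 genes without a cross are the 4 that rose and 4 of the 10 that fell, among them Solyc01g008420.3, which was tested only through its wild type levels.

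Among the 28 tested members that did not pass were some of the most abundant. Solyc12g019320.2, the most abundant in the mutant, held 42.57, 38.84 and 36.06 TPM there and 59.91, 39.32 and 66.35 TPM in wild type. Wild type replicate 2 lay among the mutant libraries, the difference was -0.45 (SE 0.20; limma adjusted p = 0.164), and without that library it was -0.68 with a limma adjusted p of 0.015. Solyc03g118970.3 held 28.74, 32.8 and 18.71 TPM against 24.86, 81.6 and 23.21 TPM (limma adjusted p = 0.583). Its lower mean in the mutant came from wild type replicate 2 alone, and without it the difference was 0.11. Solyc02g063270.3 held 24.27, 33.9 and 34.36 TPM against 17.17, 36.06 and 25.81 TPM (limma adjusted p = 0.547), with overlapping genotypes. Solyc10g054100.2 was at 13.9 ± 3.92 TPM against 17.5 ± 2.52 TPM and Solyc02g032660.3 at 11.3 ± 3.92 TPM against 12.8 ± 1.19 TPM, with limma adjusted p of 0.318 and 0.597.

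The member nearest the threshold was Solyc04g009790.3, with 4.12, 2.05 and 4.64 TPM in mutant roots against 0.83, 1.54 and 1.63 TPM in wild type. Its genotypes did not overlap, its difference was 0.95 (SE 0.29) and its limma adjusted p was 0.0519. It was chosen for mention after its values were seen. Over the 28 members the differences ran from -0.93 to 0.95. The 95% interval lay within a 2-fold change in either direction on the log2(TPM + 1) scale for 21 of them. On that scale a larger fold in TPM is not excluded for weakly expressed genes.

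ALMT genes were scarce in these roots in both genotypes. Of 23, 11 were at 0 in all libraries, 10 were above 0 but under the minimum, and 2 were tested. Solyc03g096820.3 held 8.65, 7.37 and 9.49 TPM in mutant roots against 8.27, 6.71 and 10.93 TPM in wild type, with genotypes that overlapped fully. Its difference had a 95% interval of -0.48 to 0.47. Solyc03g119640.3 held 2.68, 2.65 and 3.04 TPM against 2.41, 3.91 and 2.37 TPM, with an interval of -0.53 to 0.49. Both intervals exclude a 2-fold change on the log2(TPM + 1) scale in either direction. The limma adjusted p were 0.995 and 0.965.

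The ALMT genes matched to Arabidopsis loci were at low levels or at 0. Of 23 ALMT descriptions, 18 give an Arabidopsis locus as the match, and 0 of these 18 genes reached the minimum. The locus AT1G08440, which is Arabidopsis ALMT1, is the match of 4 tomato genes. Solyc05g012760.2 and Solyc06g074100.1 were at 0 in all libraries, and Solyc11g068970.1 was at 0.04 TPM in wild type replicate 2 and at 0 elsewhere. Solyc11g071350.1 held 0.05, 0 and 0 TPM in mutant roots against 0.12, 0.09 and 0.34 TPM in wild type. A match of this kind does not show that a gene has the role of the Arabidopsis gene. Solyc01g096140.3, whose description gives no match, was the highest untested ALMT gene by mean, with 1.2, 0.52 and 2 TPM in mutant roots against 0.36, 0.05 and 0.25 TPM in wild type. The single value of 2.4 TPM of the low-quality model Solyc01g016400.1 was in wild type replicate 3, with 0 elsewhere. Under the minimum, the genotypes did not overlap in 2 ALMT genes higher and 1 lower in the mutant, and in 1 MATE gene higher and 2 lower. Together these were 7.32% of the 41 members under the minimum in each direction, against 6.74% higher and 10.4% lower among all genes above 0 and under it.

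**Figure D5:**
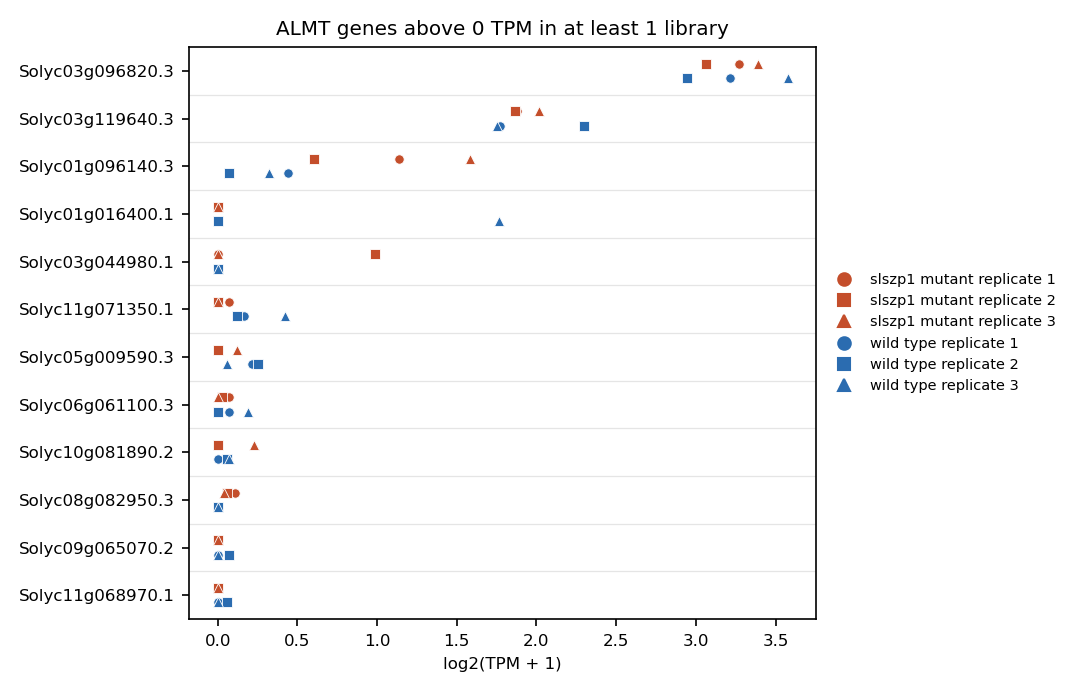
Level of the 12 ALMT genes above 0 TPM in at least 1 library, as log2(TPM + 1), with the mutant in red and wild type in blue. Solyc03g096820.3 and Solyc03g119640.3, the tested genes, show overlapping genotypes, and the others lie mostly near 0.

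Members with near identifiers seldom reached the minimum level together, where 35.6% of all 118 members were tested. Taking genes of 1 family whose identifier numbers differ by at most 100, 57 members fell into 24 groups of 2 to 4. In 10 groups 0 genes were tested, so their members were alike in lying under the minimum, and in 12 a single gene was tested. In a group of 4 MATE genes, Solyc03g118970.3 had a mean over all libraries of 35.0 TPM while the next highest had 0.025 TPM. Solyc12g019320.2 was at 47.2 TPM and its partner Solyc12g019330.2 at 0, and Solyc05g008510.3 was at 24.5 TPM and its partner Solyc05g008500.2 at 0.0283 TPM. In the remaining 2 groups more than 1 gene was tested, and in 0 groups did more than 1 gene change. In the group from Solyc02g091050.3 to Solyc02g091085.1 all 4 genes were tested, 0 passed, and the means ran from 1.11 to 3.43 TPM.

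Some members may share reads, which makes their split uncertain. Solyc10g051130.2 and Solyc10g051135.1 give the same protein as their match. The first held 4.6, 5.28 and 4.88 TPM in mutant roots against 7.17, 5.9 and 6.36 TPM in wild type, without overlap, but did not pass (limma adjusted p = 0.230). The second held 3.01, 0 and 5.64 TPM in mutant roots against 0, 0 and 0.07 TPM in wild type. Summed, the pair held 7.61, 5.28 and 10.52 TPM and 7.17, 5.9 and 6.43 TPM, and the genotypes overlapped. None of the 14 changed genes shares its match with another member, but whether they share reads with other genes was not examined.

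Of the 28 genes next to the 14 changed members in the table, 17 were tested and 4 changed. That is 23.5%, near the 19.2% of all tested genes, and the 4 genes are given as context only. Next to Solyc11g010380.2, the arabinogalactan protein model Solyc11g010390.1, marked low quality, fell too, with 1458 TPM in wild type and 601 TPM in mutant roots (limma adjusted p = 0.0109). Next to Solyc11g016970.2, the magnesium transporter gene Solyc11g016940.2 rose with it, with 12.9 TPM in wild type and 23.7 TPM in mutant roots (limma adjusted p = 0.00792). Next to Solyc06g035710.1, which fell, the transcription factor gene Solyc06g035700.1 was at 0 in all wild type libraries and at 11.8 TPM in the mutant. It was tested only through its mutant levels, so its place among the 4 is no support for a difference. Next to Solyc10g081260.2, which fell, Solyc10g081270.2 rose, with 63.5 TPM in wild type and 115 TPM in mutant roots (limma adjusted p = 0.013). The labels do not say whether strand was used in counting, so reads of overlapping neighbours could not be told apart. Next to Solyc12g005850.2 lies an aconitate hydratase gene (Solyc12g005860.2), whose enzyme converts citrate, at 506 TPM in mutant roots against 422 TPM in wild type, which did not pass (limma adjusted p = 0.475).

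Other genes of the pathway were read from lists of description words. In the list around STOP1 and Al sensitivity, 0 of 6 tested genes rose and 4 fell (66.7%), against 8.71% and 10.5% of all tested genes. Among the 4, aluminum sensitive 3 (Solyc10g085950.2), known in Arabidopsis as a transporter needed for Al tolerance, reached the minimum in wild type libraries only and so had to differ. Without it 3 of 5 fell (60%), against 9.59% of all genes that reached the minimum in both genotypes. It held 0.7, 0.23 and 0.42 TPM in mutant roots against 91.97, 38.68 and 99.94 TPM in wild type. Of the genes described as STOP1, Solyc11g017140.2 held 27.07, 28.36 and 33.29 TPM against 85.23, 79.11 and 87.54 TPM, and Solyc11g066420.1, marked low quality, 0.91, 1.41 and 2.53 TPM against 15.36, 10.28 and 20.49 TPM. Solyc04g056320.2, also so described, fell too, with 7.69, 18.67 and 15.19 TPM against 56.44, 59.57 and 65.22 TPM (limma adjusted p = 0.00177). Solyc06g065440.1, whose match is the Arabidopsis STOP1 protein, did not pass, with 11.9, 12.31 and 15.01 TPM against 20.56, 11.04 and 12 TPM, a difference of -0.10 (SE 0.24; limma adjusted p = 0.819). The wild type levels of aluminum sensitive 3 were lowest in wild type replicate 2, as in Solyc01g087150.3 and unlike Solyc11g010380.2.

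The list for enzymes that make or use citrate and malate also held 2 tested genes of other kinds, neither of which passed. They were a phosphoenolpyruvate carboxylase-related kinase gene (Solyc01g081297.1) and a 3-isopropylmalate dehydrogenase gene (Solyc05g009030.3). In the whole list 2 of 46 tested genes rose (4.35%) and 11 fell (23.9%), against 8.71% and 10.5% of all tested genes. Without genes that reached the minimum in 1 genotype only, 1 of 44 rose (2.27%) and 10 fell (22.7%), against 8.09% and 9.59% of all such genes. Of the 11, 4 were described as ATP-citrate synthase, which cleaves citrate in the cytosol. The largest difference of these was at Solyc12g099260.2, with 21.09, 11.32 and 11.33 TPM in mutant roots against 122.4, 43.83 and 69.34 TPM in wild type (limma adjusted p = 0.00882). Phosphoenolpyruvate carboxylase, which supplies the carbon skeleton of malate and citrate, fell at Solyc10g007290.3 with 7.35, 5.73 and 7.02 TPM against 18.02, 19.46 and 16.85 TPM (limma adjusted p = 0.00119) and at Solyc07g055060.3 with 3.54, 2.29 and 2.79 TPM against 8.41, 8.89 and 6.8 TPM (limma adjusted p = 0.00449). A malate dehydrogenase gene, Solyc03g115990.2, fell too, with 10.43, 7.57 and 5.8 TPM against 19.28, 16.84 and 18.21 TPM (limma adjusted p = 0.00732). Another gene described as phosphoenolpyruvate carboxylase, Solyc11g020290.2, rose, with 3.8, 4.03 and 6.82 TPM against 2.03, 2.13 and 2.06 TPM. Leaving out single libraries other than wild type replicate 2 gave 5 to 7 changed genes in place of 13.

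Among 5 tested genes for other organic acid carriers, 0 rose and 1 fell (20%, against 10.5% of all tested genes). It was the chloroplast 2-oxoglutarate/malate translocator gene Solyc01g105540.3. It held 5.52, 4.77 and 6.16 TPM in mutant roots against 10.52, 9.32 and 9.57 TPM in wild type (limma adjusted p = 0.0191). That call was lost without mutant replicate 1 or 2 or wild type replicate 1 or 3. The gene described as tonoplast dicarboxylate transporter (Solyc11g012360.2) was at 135 TPM in mutant roots against 129.6 TPM in wild type and did not pass. In Arabidopsis the protein of that name moves malate into the vacuole. The list of proton pumps also held tested genes of proton pump interactors, which are not pumps (Solyc05g008780.3, Solyc07g063100.3 and Solyc08g068850.3). None of these passed. In the whole list 1 of 11 tested genes rose and 1 fell. That is 9.09% each way, near the 8.71% and 10.5% of all tested genes, so nothing is read from the count. The first was a vacuolar pyrophosphatase (Solyc01g100390.3), with 463.85, 364.64 and 356.87 TPM against 177.97, 115.42 and 264.8 TPM. The second was a plasma membrane H+-ATPase (Solyc03g034370.1, a model matched in part), with 4.7, 10.97 and 6.06 TPM against 31.72, 23.69 and 38.25 TPM. Their limma adjusted p were 0.0265 and 0.0025, and 1 gene changed in place of 2 without mutant replicate 1 or 2 or wild type replicate 1.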

How the data were processed

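The deposited table lists 1 value per gene for every library. The authors' values were taken as TPM from their form, since column totals lay between 940694.5 and 974316.37, and the header names no unit. Per the submitters' processing notes the tools were TopHat2, HISAT2, StringTie and Cufflinks, with neither roles nor versions, and the sources used here name no genome build. Read depth cannot be had from TPM, so no counting interval was given. The RefSeq gene table matched 0 of the identifiers, so names come from the descriptions and no sequences are shown.

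Genes with at least 1 TPM in 3 or more of the 6 libraries were tested as log2(TPM + 1) in limma 3.58.1 (trend and robust options, statmod 1.5.0, R 4.3.3), and p-values were adjusted by Benjamini-Hochberg over all of them. The planned design allowed for counts. The table holds none, so no count model was run. The fit was tested on simulated data. The rule named every changed member, both tested ALMT genes, the 5 most abundant members that did not pass, and the 3 changed genes of each pathway list with the smallest p. The neighbours, near identifiers, the pair with a shared match, the untested genes, Solyc04g009790.3, Solyc04g056320.2, Solyc06g065440.1, Solyc12g099260.2, Solyc11g020290.2 and Solyc11g012360.2 were chosen after their values were seen. The members, lists and tests were chosen with earlier results of these data known. An alternative left out models marked low quality or whose description code has a dash as its middle sign (matched in part). Codes of an older form were not read, so such models stayed in unless marked low quality. The replicate number entered no fit except the alternative that used it as a block. P-values measure the spread between these libraries, which may be technical in part.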

Additional observations from a re-analysis of the deposited data

How the results depend on the processing

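Alternatives changed the pseudocount to 0.1, dropped the minimum level, applied quantile normalization or median centring, used the replicate number as a block, left out low-quality or partly matched models, asked for a 2-fold change, or left out each library. DESeq2 was not run because the table holds no counts. Over the settings without a left-out library, 4 or 5 members rose and 7 to 10 fell. Under the replicate block 4 rose and 7 fell, with 1276 and 1499 of all genes. In that fit Solyc10g081260.2, Solyc06g035710.1 and Solyc05g008510.3 were not called (limma adjusted p of 0.0868, 0.0703 and 0.0662). Deviations of same-numbered libraries from their group means had correlations of -0.048, -0.074 and 0.11. With 3 libraries per group these values cannot show whether libraries were paired, and the labels do not say. With libraries left out, 4 to 5 members rose and 5 to 10 fell. Of all genes 994 to 1764 rose and 1131 to 2042 fell. In these fits 5 to 16 genes of the enzyme list, 0 to 1 of the carrier list and 1 to 3 of the proton pump list changed. Of the Al tolerance list 4 genes changed in each. With a change of at least 2-fold, 911 of all genes rose and 1107 fell, and 8 enzyme and 0 carrier genes changed. Of the proton pump list 1 gene changed when the minimum was dropped and 1 when low-quality or partly matched models were left out. Of the named members, 0 of those called reversed, but with a library left out they could not, because their genotypes did not overlap. Signs turned in 4 that did not pass. Under quantile normalization the difference was 0.034 for Solyc03g096820.3 and 0.035 for Solyc03g119640.3. With single libraries left out it ran from -0.15 to 0.16 for Solyc03g096820.3, from -0.11 to 0.16 for Solyc03g119640.3, from -0.77 to 0.11 for Solyc03g118970.3 and from -0.00206 to 0.51 for Solyc02g063270.3. The cause was not tested. The 41 members above 0 but under the minimum were not tested.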
